A study of Homo sapiens with 6 samples.

Results

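The integrated stress response effectors described here are 10 genes, ATF4, ATF3, DDIT3, TRIB3, CHAC1, SESN2, DDIT4, PPP1R15A, CEBPB and STC2, which encode a stress-induced transcription factor and proteins that act with it or after it. They were taken by name from the symbol column of the deposited RNA table, without use of their measured values in that rule. These genes and the gene lists set beside them were, however, chosen with earlier results of these data known. All 10 have a row among the 19223 symbols of the table, and all 10 were among the 12725 symbols that reached 10 in 3 or more libraries and so entered the test. They are listed with 29 transcripts, and each gene is represented by whichever of its transcripts had the highest mean value, unless another is named.

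Cells of LoVo, an established human line of colorectal adenocarcinoma origin, were kept with vehicle (Control, 3 libraries) or exposed to 2.5 μM DCC-2036, a tyrosine kinase inhibitor also known as rebastinib (3 libraries). The labels give 48 h for both groups, whereas a legend of the study gives a shorter exposure. The labels do not say whether the replicates of a group came from separate cultures, so p-values measure the spread between these libraries, which may be technical. Libraries were made with the Nextera XT kit, which does not mark the strand of the RNA, so a gene cannot be told apart from one that overlaps it on the other strand. The unit is an adjusted signal per transcript, and the number of reads behind it is unknown.

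Markers of the epithelium were partly present. EPCAM and the keratins KRT8, KRT18 and KRT19 had values of at least 4524 in every library, and CDX2, an intestinal transcription factor, had values from 213 to 365. The other intestinal markers were low or near 0. KRT20 reached at most 64.1, CDH17 at most 5.12, VIL1 at most 4.12, LGALS4 at most 7.23 and CEACAM5 at most 0.905 in any library. Of the 6 tested epithelial markers, KRT8 was called higher and KRT20 lower with DCC-2036, where 19.2% and 22.7% of all genes tested were. KRT8 lost the call without Control replicate 1, 2 or 3 or DCC-2036 replicate 2, and KRT20 without Control replicate 1 or 3 and with cyclic loess, a normalization tried after the values were seen. Markers of other cell types were summed as a check. The 6 fibroblast genes summed to 439.9, 412 and 369.6 in Control and to 516, 452 and 553 with DCC-2036, mostly from COL1A1. The 6 leukocyte genes summed to 228, 274 and 263 in Control and to 222, 252 and 311 with DCC-2036, mostly from CD68, while PTPRC was listed at 0 in all 6 libraries. The 4 endothelial genes summed to 14.2, 10.5 and 15.7 in Control and to 41.3, 15.4 and 20.3 with DCC-2036.

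In the integrated stress response, kinases that sense unfolded proteins, lack of amino acids, viral RNA or lack of heme phosphorylate the initiation factor eIF2. General translation then falls, while the mRNA of ATF4 is translated better, and ATF4 switches on genes for amino acid supply, redox balance and, with CHOP, cell death. The response is self-limiting, because one of the induced proteins brings a phosphatase back to eIF2. RNA libraries measure neither the phosphorylation of eIF2 nor the translation of ATF4.

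With DCC-2036, 7 of the 10 effectors rose, 1 fell and 2 did not pass the test. ATF3, CHAC1, SESN2, TRIB3, DDIT4, STC2 and ATF4 were called higher at an adjusted p under 0.01 (limma on log2(value + 1), two-sided, Benjamini-Hochberg adjustment over all genes tested), against 19.2% of all genes tested. PPP1R15A was called lower, as were 22.7% of all genes tested. DDIT3 and CEBPB were not called. The values of Control and DCC-2036 did not overlap in 8 of the 10 effectors, a share near the 71.1% found over all genes tested. The median log2 fold change of the 10 was 0.99, beside -0.09 over all genes tested. ATF3, CHAC1, SESN2 and TRIB3 lay above the 95th percentile of all tested genes, a log2 fold change of 1.21. TRIB3, at 1.218 with a standard error of 0.09 (limma), was barely above this limit. Exact permutation of 3 against 3 libraries has a floor of p = 0.1, which each of the 8 effectors without overlap reached.

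**Figure D1:**
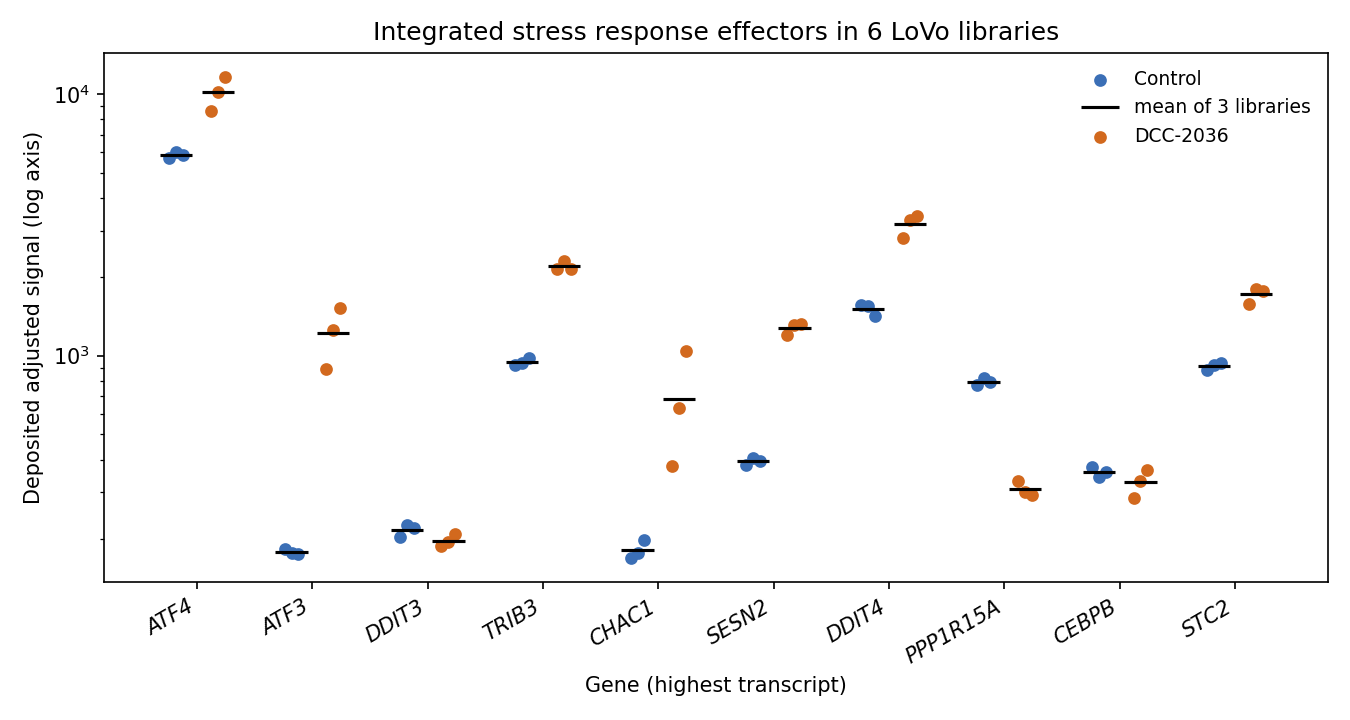
Adjusted signal of each effector on a log axis, with 1 point for each library (blue, Control; orange, DCC-2036) and a black line at the mean of 3 libraries. Control and DCC-2036 points stand apart in 8 effectors and overlap in DDIT3 and CEBPB.

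ATF4, the basic leucine zipper factor at the centre of the response, lies at chr22:39519695-39522685 on the forward strand (GENCODE 29, GRCh38; the deposited table itself gives no build or coordinates). Control libraries held 5674, 6016 and 5841 of its signal, and DCC-2036 libraries 8606, 10189 and 11608. Every DCC-2036 library stood above every Control library, and the DCC-2036 libraries differed more among themselves. The mean rose from 5844 ± 171 to 10134.5 ± 1502 (SD, n = 3), or by 0.78 on the log2 scale (adjusted p = 0.00316, limma, standard error 0.13). This call was lost when Control replicate 1, 2 or 3 or DCC-2036 replicate 2 was left out, with adjusted p-values (limma) of 0.0156, 0.0143, 0.0153 and 0.0153. The log2 fold change stayed between 0.68 and 0.90 in all 6 fits without 1 library. The call was also lost with cyclic loess (0.44, adjusted p = 0.0127, limma) and with a block for replicate number (0.78, adjusted p = 0.0109, limma). In bulk RNA, a change in the RNA of each cell and a change in the share of cells that carry it cannot be told apart, here or for the other effectors.

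ATF3 encodes a transcription factor of the ATF/CREB family that ATF4 induces, and was the effector with the highest log2 fold change. It lies at chr1:212565334-212620777 on the forward strand and was listed at 182, 176 and 175 in Control and at 891, 1258 and 1519 with DCC-2036. The Control libraries were within a narrow range, and even the lowest DCC-2036 library was several times higher. The mean with DCC-2036 was 6.87 times the Control mean, and the log2 fold change was 2.74 ± 0.20 (standard error, limma, adjusted p = 0.000265). By log2 fold change it ranked 69 of the 12725 genes tested, counted from the highest.

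DDIT3 encodes CHOP, the factor that acts with ATF4 and is tied to cell death when stress persists. Its values were 202, 226 and 219 in Control and 187, 194 and 209 with DCC-2036. The groups overlapped, since the highest DCC-2036 library stood above the lowest Control library. The log2 fold change of -0.13 was not called (95% interval -0.38 to 0.11, adjusted p = 0.283, limma). A miss of the threshold does not show that the level was the same, and the sign turned to 0.34 (adjusted p = 0.0623, limma) when a trend with the level was taken out of the libraries by cyclic loess, an alternative chosen after the values had been seen. With the 3 scalings of whole libraries it stayed below 0, down to -0.32 (adjusted p = 0.0198, limma) at equal totals.

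DDIT3 lies on the reverse strand at chr12:57516588-57521737, where GENCODE 29 places MARS and MBD6 across it on the opposite strand and AC022506.1 and MIR616 on its own. These genes are named for their position and after their values were seen. MARS had values of 3968, 4026 and 4191 in Control and of 3410.5, 2830.1 and 2174 with DCC-2036, and MBD6 of 301, 323 and 356 in Control and of 151, 263 and 377 with DCC-2036. The kit does not separate the strands and the handling of reads in shared regions is not described, so reads of these genes within DDIT3 cannot be told apart from its own.

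CEBPB, a C/EBP factor that pairs with ATF4 and CHOP, lies on the forward strand at chr20:50190734-50192689, with an antisense gene across it. Its values were 376, 345 and 359.9 in Control and 285, 332 and 367 with DCC-2036. The groups overlapped, and DCC-2036 replicate 3 stood above the mean of Control. The log2 fold change was -0.14 and was not called (95% interval -0.44 to 0.16, adjusted p = 0.346, limma). With the cyclic loess it was 0.20 (adjusted p = 0.312, limma), and at equal totals it was -0.33 (adjusted p = 0.031, limma). In the 6 fits without 1 library it ran from -0.225 to -0.045, not called in any. The exact permutation test gave 0.2 for DDIT3 and 0.3 for CEBPB.

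The genes that restrain the response moved in opposite directions. TRIB3, a pseudokinase that ATF4 induces and that binds ATF4, CHOP and the kinase AKT, lies on the forward strand at chr20:362835-397559. It had values of 921, 935 and 976 in Control and of 2138, 2309 and 2148 with DCC-2036. The groups were far apart and both were tight. The rise was 1.22 ± 0.09 on the log2 scale (standard error, limma, adjusted p = 0.000289), and all 3 DCC-2036 libraries lay between 1.18 and 1.29 above the Control mean on the log2 scale.

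PPP1R15A encodes GADD34, the stress-induced subunit that brings protein phosphatase 1 to eIF2 and so restores translation. On the forward strand at chr19:48872392-48876057, it was the one effector called lower. It stood at 769, 825 and 791 in Control and at 332, 302 and 293 with DCC-2036. No DCC-2036 library reached the lowest Control library, and both groups were tight. The mean fell from 795 ± 28.0 to 309 ± 20.2 (SD, n = 3), which left 0.389 of the Control mean, with a log2 fold change of -1.36 ± 0.10 (standard error, limma, adjusted p = 0.000272). Call and direction held under each of 17 alternatives, where the change lay between -1.55 and -1.15.

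SESN2 and DDIT4 encode inhibitors of mTORC1, the kinase complex that promotes growth when nutrients are plentiful. SESN2 (Sestrin 2), a leucine sensor that acts on the GATOR complexes, lies on the forward strand at chr1:28259527-28282491. It had values of 383, 405 and 397 in Control and of 1201, 1308 and 1326 with DCC-2036. No DCC-2036 library came near Control, and the SD on the log2 scale was 0.041 in Control and 0.078 with DCC-2036. The log2 fold change was 1.69 ± 0.10 (standard error), with the lowest adjusted p of the 10 effectors (0.000193, limma).

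DDIT4 (REDD1), which acts on mTORC1 through the TSC complex, lies on the forward strand at chr10:72273920-72276036, with an antisense gene across it. Its values were 1566.5, 1542 and 1424 in Control and 2804, 3314 and 3405 with DCC-2036. All DCC-2036 libraries were higher than all Control libraries. DDIT4 rose by 1.07 ± 0.12 on the log2 scale (standard error, limma, adjusted p = 0.000728). The antisense gene has no row of that name in the table, and its reads cannot be told apart from those of DDIT4; the same holds for CEBPB.

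CHAC1 encodes an enzyme that breaks down glutathione and is a late target of ATF4, ATF3 and CHOP. It lies on the forward strand at chr15:40952962-40956519 and had values of 168, 176 and 198 in Control and of 378, 632 and 1038 with DCC-2036. Every DCC-2036 library exceeded every Control library, but DCC-2036 replicate 3 was 2.75 times replicate 1, the widest such ratio among the effectors. The log2 fold change of 1.79 had the largest standard error of the 10, 0.35 (adjusted p = 0.00507, limma). It lost the call without Control replicate 1, 2 or 3 or DCC-2036 replicate 2, at adjusted p-values (limma) of 0.0213, 0.0191, 0.0177 and 0.0185, and also with no filter on low values, at 0.0121. In the 6 fits without 1 library its log2 fold change ran from 1.43 to 2.16.

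STC2 encodes stanniocalcin 2, a secreted glycoprotein that ATF4 induces and that is known to protect cells under stress. It lies on the reverse strand at chr5:173314713-173329503. Its values were 885, 922 and 935 in Control and 1574, 1803 and 1762 with DCC-2036. Here too the groups did not overlap. STC2 rose by 0.90 ± 0.10 on the log2 scale (standard error, limma, adjusted p = 0.000799).

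**Figure D2:**
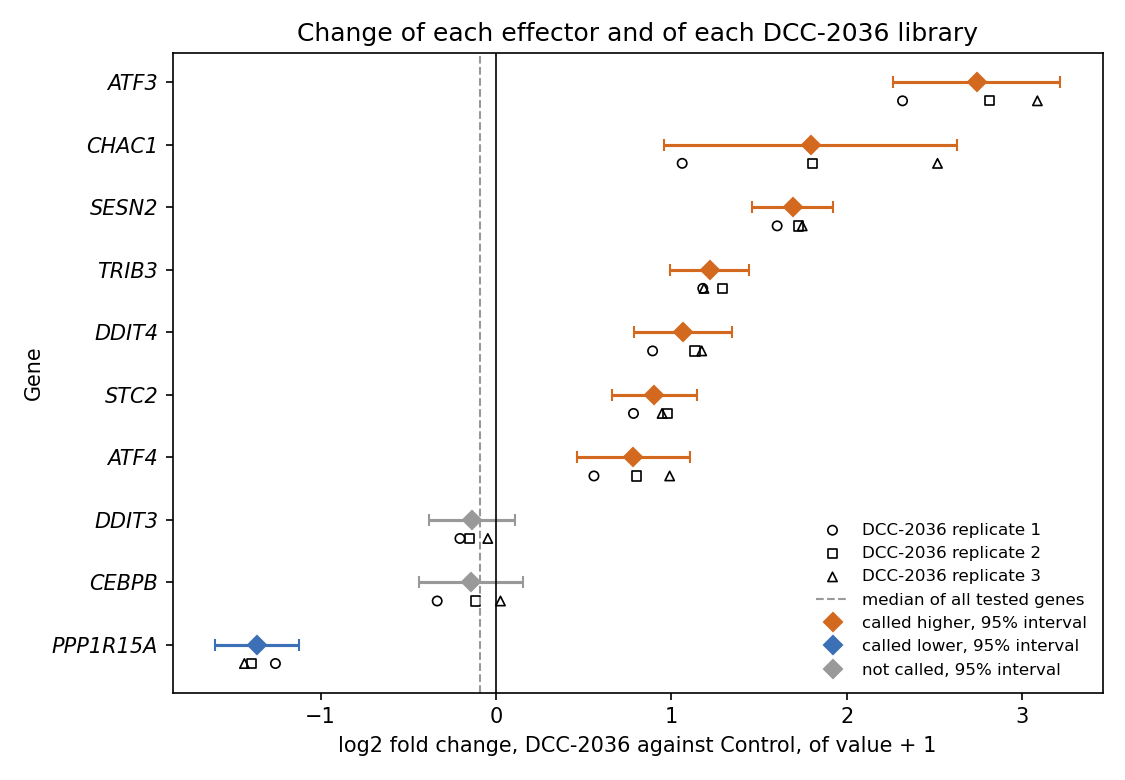
Log2 fold change of each effector on the log2(value + 1) scale (diamonds) with its 95% interval (limma), and, as open symbols, each DCC-2036 library against the Control mean. The dashed line is the median of all tested genes, -0.09; 7 intervals lie above 0, that of PPP1R15A below it, and those of DDIT3 and CEBPB cross it.

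The spread among DCC-2036 libraries was not the same for all effectors. On the log2 scale the SD of the 3 DCC-2036 libraries was 0.728 for CHAC1, 0.390 for ATF3 and 0.216 for ATF4, against 0.120, 0.032 and 0.042 in Control. For TRIB3 it was 0.062 and for DDIT3 0.081, beside 0.043 and 0.082 in Control. Replicate 3 was the highest of the DCC-2036 libraries in 7 of the 10 effectors. The share over all genes tested was not counted, so this is not shown to be a trait of the effectors. The column total of DCC-2036 replicate 3 over all transcripts was also the highest, at 48023306 against 45957597 and 43279603 in the other DCC-2036 libraries. The Control columns summed to 38997229, 39956227 and 40587145. The scaling to equal totals used the totals over 1 transcript per symbol, not these column totals. With it the log2 fold changes were 0.59 for ATF4, 1.60 for CHAC1 and 2.55 for ATF3, still called, and that of PPP1R15A was -1.55.

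Changes in these libraries also moved with the level, a description made after the values had been seen. Among the 3759 tested genes with a mean over 1000 and up to 10000, where ATF4, TRIB3, DDIT4 and STC2 lie, 31.3% were called higher, 12.8% lower, and the median log2 fold change was 0.24. Among the 6215 with a mean over 100 and up to 1000, where the other 6 effectors lie, 14.7% were called higher, 29.8% lower, and the median was -0.28. The changes of ATF3, CHAC1 and SESN2 therefore ran against the median of their range, and that of PPP1R15A ran with it. When this trend was taken out by cyclic loess, ATF4 went to 0.44 and lost the call (adjusted p = 0.0127, limma). The same step gave ATF3 2.97, CHAC1 2.14, SESN2 1.77, TRIB3 1.09, DDIT4 0.85, STC2 0.81 and PPP1R15A -1.15, all called. Low values also differed in form between the groups. In each DCC-2036 library more than 1000 symbols had a value above 0 and under 0.1, whereas Control had 0 such symbols in every library, and the same 3155 symbols were at 0 in all 3 DCC-2036 libraries. Whether the adjustment of the deposited values differed between the groups cannot be told apart from the treatment, and the cause of the trend was not tested. All effectors had values of at least 168 in every library.

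The promoter windows of 4 effectors are shown: those of ATF3, CHAC1 and PPP1R15A because they hold the only matches among the effectors, and that of DDIT3, which was not called, as one without a match. They were taken from RefSeq on GRCh38.p14 and run from 250 bases before to 50 bases after a start, 5′ to 3′ along the gene. The windows are chr1:212565157-212565456 on the forward strand for ATF3, chr15:40953221-40953520 on the forward strand for CHAC1, chr19:48872171-48872470 on the forward strand for PPP1R15A and chr12:57520465-57520764 on the reverse strand for DDIT3. Capitals mark matches on either strand to TGATGNAA, the core of the C/EBP-ATF composite element that ATF4 binds with C/EBP partners, or to TGACGTCA, the cAMP response element of the ATF/CREB family.
ATF3: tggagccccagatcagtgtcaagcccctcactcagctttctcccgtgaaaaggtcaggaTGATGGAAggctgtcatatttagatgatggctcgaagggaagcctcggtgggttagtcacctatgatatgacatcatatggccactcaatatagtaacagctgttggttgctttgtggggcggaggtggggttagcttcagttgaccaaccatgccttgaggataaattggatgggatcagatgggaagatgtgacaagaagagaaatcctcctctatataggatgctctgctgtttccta
CHAC1: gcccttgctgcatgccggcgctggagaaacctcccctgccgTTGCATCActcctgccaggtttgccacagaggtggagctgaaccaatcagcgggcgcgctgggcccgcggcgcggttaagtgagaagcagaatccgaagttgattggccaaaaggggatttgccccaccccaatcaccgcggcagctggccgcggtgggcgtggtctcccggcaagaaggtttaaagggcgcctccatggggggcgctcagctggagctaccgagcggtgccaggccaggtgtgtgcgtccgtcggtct
PPP1R15A: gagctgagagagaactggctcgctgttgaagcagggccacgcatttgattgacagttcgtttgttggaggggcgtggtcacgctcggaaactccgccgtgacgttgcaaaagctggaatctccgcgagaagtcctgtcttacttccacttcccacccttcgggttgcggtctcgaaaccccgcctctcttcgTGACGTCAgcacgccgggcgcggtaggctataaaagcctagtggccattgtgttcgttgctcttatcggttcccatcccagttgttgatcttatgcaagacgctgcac
DDIT3: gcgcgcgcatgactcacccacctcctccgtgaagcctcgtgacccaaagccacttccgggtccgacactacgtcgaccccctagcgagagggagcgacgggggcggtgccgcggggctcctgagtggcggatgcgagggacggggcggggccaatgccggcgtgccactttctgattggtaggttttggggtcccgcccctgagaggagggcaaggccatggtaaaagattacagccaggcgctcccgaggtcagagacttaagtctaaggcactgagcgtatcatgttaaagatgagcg

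The composite core was found in ATF3, where the match TGATGGAA begins 191 bases before the start, and in CHAC1, where TTGCATCA, its reverse strand form, begins 209 bases before the start. The other ATF3 window, chr1:212614768-212615067, held no match. PPP1R15A, the effector that fell, held the cAMP response element 58 bases before the start. All 10 effectors had at least 1 window in the table, 16 windows in all, and 3 windows held a match. ATF4, TRIB3, SESN2, DDIT4 and STC2, all called higher, held none, nor did CEBPB. Over all 35116 windows of this length, 3.62% held the composite core and 1.85% the cAMP response element. A match is no measure of binding, and the absence of one, as in DDIT3, says only that these letters are not in this window. Among the 20 other ATF4 target genes with a window of this table, 4 held the composite core and 0 the cAMP response element in the first window listed.

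With all transcripts as separate rows, 19.7% of 32323 tested rows were called higher and 22.4% lower (limma). All 6 ATF3 transcripts were called higher, with log2 fold changes from 2.71 to 2.80, as were both of ATF4 (0.78 and 0.80) and all 6 of TRIB3 (1.20 to 1.22), which hold 4 distinct sets of values. None of the 6 DDIT3 transcripts was called (limma, -0.18 to -0.06), and the 3 CEBPB transcripts held identical values. DDIT4, PPP1R15A, SESN2 and STC2 are listed with 1 transcript each. Transcripts of a gene share reads, so their values are not independent.

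CHAC1 was the effector whose transcripts differed most. The second transcript, at 107, 109 and 119.7 in Control and 272, 484 and 799 with DCC-2036, rose by 2.07 ± 0.36 on the log2 scale (standard error, limma, adjusted p = 0.0035), beside 1.79 for the first. Relative to the first transcript it held 63.7%, 61.7% and 60.5% of the signal in Control and 72.0%, 76.5% and 76.9% with DCC-2036. These shares did not overlap, and their difference was not tested.

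**Figure D3:**
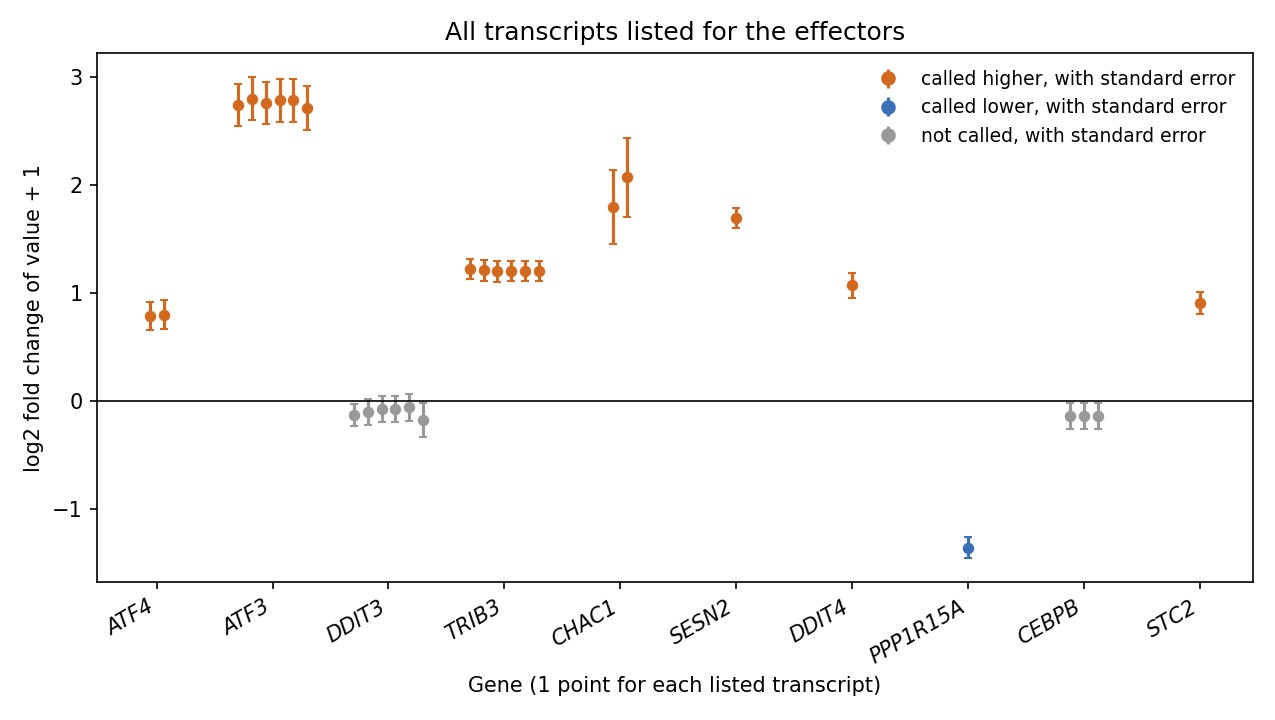
Log2 fold change of each transcript listed for the effectors, 1 point per transcript, with its standard error (limma, all transcripts as separate rows). The points of a gene lie close together, from 2.71 to 2.80 in ATF3, and are furthest apart in CHAC1, at 1.79 and 2.07.

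Levels were compared between genes per length, here as signal per kilobase of the GENCODE 29 transcript matched to the listed RefSeq accession. This assumes that the adjusted signal grows with transcript length, which the sources used here do not state. In Control the order of the mean levels was ATF4 (2894 per kilobase), DDIT4 (864), TRIB3 (378), PPP1R15A (334), DDIT3 (202), CEBPB (184), STC2 (171) and SESN2 (114). DDIT3 and CEBPB overlapped between libraries in this order, and the other neighbours did not. With DCC-2036 the levels were 5019.55 for ATF4, 1816 for DDIT4, 879.8 for TRIB3, 370.3 for SESN2, 320.05 for STC2, 184 for DDIT3, 168 for CEBPB and 129.96 for PPP1R15A. PPP1R15A thus went from the fourth place of these 8 genes to the last, and SESN2 from the last to the fourth. These levels depend on the transcript chosen. ATF3 has no settled place, with 207 per kilobase in Control for its highest transcript, matched to a model of 858 bases, and from 73.5 to 298 over its 6 transcripts (519.6 to 2000.4 with DCC-2036). Other transcripts gave up to 4055 for ATF4 and 569.9 for TRIB3 in Control, and DDIT3 ranged from 179 to 215 in Control, on either side of CEBPB. No model was matched for CHAC1.

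Paralogs of the effectors were called in both directions. Of the 17 tested among 21 listed, 3 were called higher and 3 lower, where 19.2% and 22.7% of all genes tested were. The lists overlap: JDP2, CEBPG and ATF5 are also among the other ATF4 target genes. PPP1R15B is also listed under eIF2 phosphorylation control, and SESN1 under p53 target genes. The median log2 fold change was 0.08, and it ran from -0.10 at equal totals to 0.39 with cyclic loess, which called 4 higher and 2 lower. Median of ratios scaling called 6 higher and 3 lower, and a filter of 10 in every library called 5 of 16 higher. Only JDP2, CHAC2 and PPP1R15B kept their calls whichever library was left out. CHAC2, the constitutive relative of CHAC1, fell from 198, 198 and 199 in Control to 45.7, 49.96 and 83.5 with DCC-2036 (log2 fold change -1.77, adjusted p = 0.00122, limma). PPP1R15B, the constitutive counterpart of PPP1R15A, fell as well, by 0.85 on the log2 scale (adjusted p = 0.00117, limma). SESN1 (-0.03) and SESN3 (-0.15), relatives of SESN2, were not called, nor were TRIB1 (0.42, adjusted p = 0.0145, limma) and TRIB2 (0.08). JDP2, the closest relative of ATF3, rose by a log2 fold change of 1.76 (adjusted p = 0.000193, limma). Among C/EBP genes, CEBPG, a partner of ATF4, rose from 1064, 988 and 1015 in Control to 2512, 3630.02 and 5718 with DCC-2036, a log2 fold change of 1.87 (adjusted p = 0.00218, limma), while CEBPA fell (-1.23, adjusted p = 0.00216, limma) and CEBPD was not called (0.26). CEBPG lost the call without Control replicate 1, 2 or 3, and CEBPA without any of these or DCC-2036 replicate 2, at adjusted p-values (limma) from 0.0102 to 0.0112, and CEBPA also with cyclic loess (-0.75, adjusted p = 0.0278, limma). ATF2, of the ATF/CREB family, was called higher (0.66, adjusted p = 0.0041, limma), but not at equal totals nor without Control replicate 1, 2 or 3 or DCC-2036 replicate 2. ATF5, a close relative of ATF4, was just outside the threshold (0.57, adjusted p = 0.0111, limma). STC1 and DDIT4L, named after their values were seen, had values too low to be tested.

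Genes that control eIF2 phosphorylation were called about as often as all genes. Of 21 tested, 4 were called higher and 4 lower, beside 19.2% and 22.7% of all genes tested, with a median log2 fold change of -0.02 beside -0.09. The median was -0.20 at equal totals and -0.23 with cyclic loess, which called 3 higher and 6 lower. The 4 called lower kept their calls whichever library was left out, but of those called higher only DNAJC3 did without Control replicate 1, 2 or 3 or DCC-2036 replicate 2. The 4 eIF2 kinases, chosen after their values were seen, were not called in the main fit. EIF2AK3, which encodes PERK, came nearest, at 322, 262 and 294 in Control and 397, 393 and 387 with DCC-2036 (0.43, adjusted p = 0.0154, limma). Its call depended on the scaling: it was called with median of ratios (0.51, adjusted p = 0.00824, limma) and cyclic loess (0.77, adjusted p = 0.00231, limma), and not at equal totals (0.24, adjusted p = 0.131, limma). EIF2AK1 was called lower with cyclic loess alone (-0.42, adjusted p = 0.0074, limma). The lowest values among called genes were those of OMA1 (-2.23) and DELE1 (-1.29), which carry mitochondrial stress to eIF2 kinases, and of EIF2B4 (-1.68), a subunit of the exchange factor that phosphorylated eIF2 blocks. The highest were those of DNAJC3 (1.38), which encodes an inhibitor of eIF2 kinases, PPP1CB (0.88), a catalytic subunit that GADD34 can bring to eIF2, and EIF2S2 (0.66), a subunit of eIF2. PPP1CB and EIF2S2 were not called with cyclic loess. PPP1R15B, the constitutive subunit, was called lower beside the stress-induced PPP1R15A.

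Among other target genes of ATF4, 12 of 24 tested were called higher, 1 lower and 11 were not called, beside 19.2% higher and 22.7% lower over all genes tested. JDP2 and CEBPG, among those called higher, are also counted with the paralogs. The median log2 fold change of the target genes was 0.61. The count called higher fell to 8 without Control replicate 1 or 2 or DCC-2036 replicate 2 and to 7 without Control replicate 3, and 7 genes kept the call in all 6 such fits. SLC7A11, the cystine transporter, rose from 682, 777 and 573 in Control to 4682, 6144 and 7660.1 with DCC-2036 (log2 fold change 3.17, adjusted p = 0.00022, limma). NUPR1 was called as well, but it had at most 6.66 in Control, met the filter only through its DCC-2036 values of 16.7, 32.4 and 40.5, and was not tested once any of these was left out. It also lost the call without Control replicate 2 or 3 (adjusted p = 0.0129 and 0.0106, limma), so neither its call nor its log2 fold change (2.67) is firm, and 11 genes were called higher without it. A filter of 10 in every library, which drops it, called 12 of 23 higher, with a median of 0.57. ASNS, asparagine synthetase, followed (2.43). XPOT, which exports transfer RNA, was the one called lower (-1.06). FGF21 was listed at 0 in all Control libraries and at 3.19, 7.63 and 17.0002 with DCC-2036, and was not tested; it is named after its values were seen. Of the 6 genes tied to cell death by CHOP, ERO1A was called higher (0.98), BCL2 lower (-1.43) and 4 were not called, with a median of 0.27 (0.08 at equal totals, 0.55 with cyclic loess). Neither ERO1A nor BCL2 was called without Control replicate 1 or 2 or DCC-2036 replicate 2, and ERO1A was not without Control replicate 3.

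The ATF6 and XBP1 branches of the unfolded protein response, which respond to unfolded proteins beside the eIF2 kinase of the endoplasmic reticulum, gave 6 of 18 genes called higher and 2 lower (19.2% and 22.7% over all genes tested), with a median log2 fold change of 0.18 that turned to -0.01 at equal totals. ERN1 (1.23), EDEM1 (1.17) and SEC24D (0.90) were the highest, and MANF (-1.07) and SDF2L1 (-1.06) were called lower. The count called higher fell to 2 without Control replicate 2 or 3 and to 3 without Control replicate 1, without DCC-2036 replicate 2 or with cyclic loess. ERN1, SEC24D and MANF kept their calls in all 6 fits without 1 library. In amino acid sensing and mTORC1, where SESN2 and DDIT4 act, 4 of 21 genes were called higher, near the 19.2% of all genes tested, with RRAGC (0.84), RRAGD (0.74) and SEC13 (0.74) at the top, and WDR59 (-1.27) and RRAGA (-0.81) were called lower. The count called higher fell to 0 without Control replicate 2 or DCC-2036 replicate 2 and to 1, SEC13, without Control replicate 1 or 3. RRAGD also lost its call at equal totals, while WDR59 and RRAGA kept theirs in all these fits. The median of that list was -0.08, and its sign was not stable: -0.26 at equal totals, 0.01 with median of ratios scaling, 0.09 with cyclic loess and 0.14 without DCC-2036 replicate 3.

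For each effector the tested gene with the most similar profile was found by the Euclidean distance between log2(value + 1) profiles over the 6 libraries, each centred on its Control mean. The profiles of ATF3 and CHAC1 had few like them: KMT5B lay at 0.272 from ATF3, with 6 genes within 0.5, and GADD45B lay at 0.257 from CHAC1, with 15 within 0.5. For SESN2 the nearest was SMAD7 (0.114), with 64 genes within 0.5. TRIB3 was nearest to NDRG3 (0.0896; 367 within 0.5) and PPP1R15A to CAV2 (0.124; 458 within 0.5). The smaller changes had many: DDIT4 was nearest to OTULIN (0.0728; 816), STC2 to PRCP (0.0649; 1171) and ATF4 to NDUFS4 (0.0643; 1452). DDIT3 was nearest to COX7C (0.0572; 1603) and CEBPB to THRAP3 (0.0909; 1285). None of these genes is an effector.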

How the data were processed

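RNA of 3 Control and 3 DCC-2036 libraries of LoVo cells was sequenced, and samples were grouped by their titles. The deposited table holds 1 signal value per transcript and library. The text around the series describes the values as already adjusted to a common depth, so they were not treated as counts. The steps of that adjustment are not given in the sources used here (the study refers to earlier work). Aligner, genome build and annotation are not given in the sources used here. The authors' log2 fold change, p-value and q-value columns were not used, and there are 0 other columns of values per sample. The members and lists were chosen with earlier results of these data known.

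Each symbol was represented by its transcript of highest mean value. The fit used limma 3.58.1 in R 4.3.3 on log2(value + 1), without covariates, for symbols with at least 10 in at least 3 libraries, and called at a Benjamini-Hochberg adjusted p under 0.01. Fold changes on this scale understate changes of low values. The fit was tested on simulated data. Python 3.11.15 was used with matplotlib 3.10.9, pandas 2.3.3, numpy 2.4.6 and, for exact permutation, scipy 1.17.1. Promoter windows came from RefSeq, gene positions and transcript lengths from GENCODE 29.

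The genes named were the 10 effectors; in each list the 3 highest log2 fold changes among genes called higher and the 3 lowest among genes called lower, and further tested paralogs where set beside their effector; and the nearest profile of each effector. Marker genes are named as the check of cell type, outside this rule and after their values were seen, and any others are named as chosen after their values were seen. The lists were eIF2 phosphorylation control, other ATF4 target genes, CHOP-linked cell death genes, ATF6 and XBP1 branch genes, paralogs, amino acid sensing and mTORC1, hypoxia, p53 target and immediate early genes, and markers of 4 cell types. Alternatives were 3 scalings, other filters, a pseudocount of 0.1, limma with a trend, a replicate block, each library left out, sums over transcripts, transcripts as rows, an adjusted p limit of 0.05, a minimum change of 1 on the log2 scale and, chosen after seeing the data, cyclic loess.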

Additional observations from a re-analysis of the deposited data

How the results depend on the processing

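Of 170 refits of single effectors, 157 kept direction and side of the threshold, 11 (ATF4 and CHAC1) lost the call, and 2 changed sign, DDIT3 (0.338) and CEBPB (0.197) with cyclic loess (chosen after seeing the data), neither called; the cause was not tested. ATF3, SESN2, TRIB3, DDIT4, STC2 and PPP1R15A kept their calls in each of their 17 refits, with adjusted p-values (limma) from 1.38e-05 to 0.00647. A minimum change of 1 on the log2 scale, counted apart from these refits, left out STC2 (0.90) and ATF4 (0.78). The count called lower was 1 in every setting. That called higher was 7, or 6 with no filter, with cyclic loess and with the replicate block, 5 with a minimum change of 1 on the log2 scale, and 5 to 7 with 1 library left out.

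With equal totals the median over all genes went from -0.09 to -0.28 and gave 1716 genes higher and 3388 lower, so that 33.6% of called genes were higher, against 45.8% of 2442 and 2887. The sample titles give replicate numbers and do not say whether same-numbered libraries form pairs. Deviations of same-numbered libraries correlated at 0.081, -0.035 and -0.0033, which cannot settle whether they were handled together. The paired fit, with a replicate block, called 1202 higher and 1909 lower, and gave ATF4 an adjusted p of 0.0109 (limma). Without DCC-2036 replicate 2, 928 genes were higher and 1708 lower, and without a Control replicate at most 1054 and 1593. No filter gave 1749 and 2154.

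List medians changed sign at equal totals for p53 target genes (-0.10), paralogs (-0.10) and ATF6 and XBP1 branch genes (-0.01). That of the paralogs also did without Control replicate 3 or DCC-2036 replicate 1 (-0.01 in each). In several settings the sign changed for eIF2 phosphorylation control (up to 0.07, with median of ratios scaling). The same held for amino acid sensing and mTORC1 (up to 0.14, without DCC-2036 replicate 3). The number of reads is unknown, so no counting error can be given.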

Other observations

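Genes of 3 other stress programs were described from the same fit, as values with no explanation. Of the 15 tested hypoxia genes, 3 were called higher and 5 lower, with a median log2 fold change of -0.25, beside 19.2% higher, 22.7% lower and a median of -0.09 over all genes tested. At equal totals the median was -0.44, beside -0.28 over all genes tested. SLC2A1, a glucose transporter (1.33), VEGFA, an angiogenic growth factor (1.01), and EGLN1, an oxygen sensor (0.73), were higher, while ANKRD37 (-1.60), CA9 (-1.58) and BNIP3L (-0.96) were lower. Without Control replicate 1, 2 or 3, only 1 gene was called lower, BNIP3L, and EGLN1 lost its call. Without DCC-2036 replicate 2, 3 genes were called lower, and EGLN1 was not called (adjusted p = 0.021, limma). With cyclic loess ANKRD37 and EGLN1 were not called.

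Of the 14 tested p53 target genes, 1 was called higher and 4 lower, beside 19.2% and 22.7% of all genes tested, with a median of 0.09 (-0.10 at equal totals, 0.40 with cyclic loess). ZMAT3 rose from 375, 355 and 321 in Control to 1169, 1524 and 1934 with DCC-2036 (log2 fold change 2.11, adjusted p = 0.00045, limma). PLK3 (-2.02), BTG2 (-1.22) and XPC (-0.90) were lower. The count called lower was 2 without Control replicate 1, 2 or 3 or DCC-2036 replicate 2, where XPC lost its call. The count called higher was 3 without DCC-2036 replicate 3 and 2 without DCC-2036 replicate 1, where the median was 0.01.

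Of the 13 tested immediate early genes, 1 was called higher and 5 lower, beside 19.2% and 22.7% of all genes tested. The median was -0.25 (-0.10 without DCC-2036 replicate 1, -0.39 without Control replicate 1 and -0.44 at equal totals). The count called lower was 3 without Control replicate 1, 2 or 3 or DCC-2036 replicate 1 or 2, and 2 with cyclic loess. JUN, a partner of ATF3 in dimers, rose from 245, 202 and 198 in Control to 819, 1497 and 2925 with DCC-2036 (log2 fold change 2.83, adjusted p = 0.0022, limma), while EGR1 (-1.74), FOSL1 (-1.22) and DUSP1 (-0.90) were lower. DUSP1 was not called with cyclic loess (-0.39, adjusted p = 0.0715, limma). JUN lost its call without Control replicate 2 (adjusted p = 0.0102, limma) or 3 (adjusted p = 0.0112, limma).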
